A study of Mus musculus with 48 samples.

Results

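The genes described here are 37 genes of DNA replication and mitosis, taken by name from a list in 5 role groups. That list was chosen with earlier results of these data known. A member was read from the array probeset whose single gene symbol in the probe annotation was the member's. By that rule 36 of the 37 genes were measured, with 39 probesets, out of 35556 probesets and 19938 genes on the array. Ccnb1 was not analysed here. Pcna, Tk1 and Top2a had 2 probesets each, and the brighter one stands for the gene.

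The samples were livers of 48 male mice, 1 Affymetrix Mouse Gene 1.0 ST array per mouse. The 6 groups of 8 mice were wild type (WT, Wfs1 +/+), heterozygous (HZ, Wfs1 +/-) and knockout (KO, Wfs1 -/-) mice, each given either saline or valproic acid (VPA). Wolframin, the product of Wfs1, sits in the membrane of the endoplasmic reticulum, and VPA is an anticonvulsant and mood stabilizer that also inhibits histone deacetylases. VPA was injected intraperitoneally at 300 mg/kg daily and saline at 10 mL/kg, for 12 weeks from an age of 4 to 6 weeks, and age at death was 16 to 18 weeks. All 6 groups shared a glucose tolerance test 24 h after the last injection and were killed 24 h after that test, so the livers show the state 48 h after the last dose. The mutant allele lacks exons 7 and 8 and keeps the other exons, and the Wfs1 probeset averaged 8.46 ± 0.22 in WT mice, 8.40 ± 0.21 in HZ mice and 8.31 ± 0.17 in KO mice (log2, SD, n = 16 each), so it is a weak check of the genotype labels. Values are log2 expression, on which a difference of 1 is a doubling. Array medians ran from 6.91 to 7.03, no 2 arrays were identical, and the mean of 9 hepatocyte markers lay between 13.40 and 13.58 in every mouse. HZ mice 4 and 8 given VPA stood apart in mitosis genes, and many VPA counts, medians and called genes are also given without them.

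Replication starts when the origin recognition complex, Cdc6 and Cdt1 load the ring of Mcm2 to Mcm7, the replicative helicase, onto DNA, and the GINS proteins help to switch it on. Primase and DNA polymerase alpha then lay down primers, replication factor C loads the sliding clamp PCNA, and ribonucleotide reductase, thymidylate synthase and thymidine kinase supply the deoxynucleotides. Most hepatocytes of an adult liver are not dividing. The mean levels of the members ranged widely, from Bub1, above 13.5% of all probesets, to Pcna, above 90.3%. Which cells the transcripts came from was not measured. In RNA of whole liver, fewer cells of a type and less RNA per cell cannot be told apart.

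With VPA, averaged over the 3 genotypes, 7 of the 36 members were higher than with saline and 0 were lower, at an adjusted p under 0.05. All 7 belonged to the 21 members that act in replication: the helicase subunits Mcm3 and Mcm7, the clamp Pcna, its loader subunits Rfc3 and Rfc4, the primase subunit Prim1 and the ribonucleotide reductase subunit Rrm1. Among all probesets, 4.01% were called higher and 4.6% lower in this comparison. Since the members were chosen with earlier results known, the count beside this share is a description. The median VPA minus saline difference was 0.15 over the 21 replication members and 0.03 over the 15 members of the cyclin and mitosis groups, against -0.02 over all probesets. In the cyclin and mitosis groups 0 of 15 were called by limma, with 1 of 15 at an unadjusted p under 0.05. The differences were small, between 1.11-fold and 1.24-fold for the 7 called members, and in 6 of the 7 the difference was widest in HZ mice, or in 4 of the 7 without HZ VPA replicates 4 and 8. The array holds many probesets with no gene name. Fitted over probesets with 1 gene symbol alone, 8 of the 36 members were called with VPA, with Mcm4 added, against 12.4% of those probesets.

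Pcna, the sliding clamp that holds DNA polymerases on the template, showed the highest VPA difference among the members. With saline, Pcna lay from 9.92 to 10.22 (median 10.10) in WT, from 9.39 to 10.07 (median 9.83) in HZ and from 9.50 to 10.60 (median 10.09) in KO mice. With VPA, Pcna lay from 9.77 to 10.49 (median 10.13) in WT, from 10.20 to 10.71 (median 10.32) in HZ and from 10.10 to 10.80 (median 10.37) in KO mice. All 8 HZ mice given VPA were above all 8 given saline, whereas the groups overlapped in WT and in KO mice. The averaged difference was 0.31 ± 0.06 (SE), or 1.24-fold, with an adjusted p of 0.000918, and 20 of 24 VPA mice were above the mean of the saline mice of their genotype. Within genotypes the difference was 0.03 in WT mice, 0.55 in HZ mice and 0.36 in KO mice. The exact permutation p was 0.000155 in HZ mice, the smallest that 8 mice against 8 allow, 0.0159 in KO and 0.77 in WT mice (adjusted over 9 comparisons, 0.0014, 0.045 and 0.77). The saline HZ mice were also lower than the saline WT mice, by an exact permutation p of 0.00451 (0.0203 over 9 comparisons), while the limma adjusted p of that difference was 0.387. Both Pcna probesets gave nearly the same values, with a correlation of 0.999 over the 48 mice, and since RefSeq lists pseudogenes of Pcna on chromosomes X and 19, signal of the parent gene and of its copies may be mixed in these probesets.

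Pcna lies on chromosome 2 (GRCm38.p6, 132249286 to 132253180, minus strand). Its promoter window is shown because Pcna had the highest averaged VPA difference. The window, from 250 bases before to 50 after the start of the gene, is given 5′ to 3′ on the strand of the gene, from RefSeq on GRCm38.p6, with a CCAAT box read on the opposite strand (ATTGG) in capitals.
Pcna (chr2:132253131-132253430): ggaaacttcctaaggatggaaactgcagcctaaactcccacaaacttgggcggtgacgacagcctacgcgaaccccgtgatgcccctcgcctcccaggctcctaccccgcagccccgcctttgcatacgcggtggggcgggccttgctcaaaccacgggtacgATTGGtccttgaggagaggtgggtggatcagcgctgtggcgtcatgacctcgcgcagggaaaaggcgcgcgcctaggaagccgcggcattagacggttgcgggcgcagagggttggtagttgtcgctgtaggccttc

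Rrm1, the large subunit of ribonucleotide reductase, which makes deoxynucleotides, was the other member in which all HZ mice given VPA lay above all HZ mice given saline. With saline, Rrm1 lay from 7.78 to 8.27 (median 7.97) in WT, from 7.52 to 7.99 (median 7.84) in HZ and from 7.57 to 8.31 (median 7.96) in KO mice. With VPA, Rrm1 lay from 7.89 to 8.36 (median 8.23) in WT, from 8.09 to 8.77 (median 8.19) in HZ and from 7.96 to 8.72 (median 8.15) in KO mice. In HZ mice every VPA value was above every saline value, and 2 VPA mice, at 8.71 and 8.77, were above the other 6, which reached 8.34. The averaged difference was 0.30 ± 0.06 (SE), or 1.23-fold, with an adjusted p of 0.000855 and 22 of 24 mice above their saline mean. By genotype it was 0.17 in WT mice, 0.49 in HZ mice and 0.25 in KO mice, and the exact permutation p in HZ mice was 0.000155 (0.0014 over 9 comparisons). Across all probesets, 0.883% had all HZ mice given VPA above all HZ mice given saline, against 2 of the 36 members, and 0.813% had all of them below, against 1 of the 36, Tk1.

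The helicase genes Mcm7 and Mcm3 were called as well. With saline, Mcm7 lay from 7.87 to 8.11 (median 7.91) in WT, from 7.67 to 8.03 (median 7.79) in HZ and from 7.64 to 8.18 (median 7.86) in KO mice. With VPA, Mcm7 lay from 7.76 to 8.33 (median 8.07) in WT, from 8.02 to 8.62 (median 8.29) in HZ and from 7.79 to 8.51 (median 8.03) in KO mice. The HZ groups met only at their edges, since 7 of 8 VPA mice were above every saline mouse. Mcm7 differed by 0.26 ± 0.05 (SE, 1.19-fold, adjusted p = 0.000919, 21 of 24 mice above their saline mean), and by 0.14 in WT mice, 0.46 in HZ mice and 0.17 in KO mice. With saline, Mcm3 lay from 6.40 to 6.76 (median 6.55) in WT, from 6.19 to 6.54 (median 6.41) in HZ and from 6.26 to 6.62 (median 6.46) in KO mice. With VPA, Mcm3 lay from 6.33 to 7.02 (median 6.55) in WT, from 6.26 to 7.52 (median 6.73) in HZ and from 6.44 to 7.26 (median 6.60) in KO mice. The VPA groups were spread more widely than the saline groups in all 3 genotypes, with SDs of 0.24 to 0.43 against 0.10 to 0.12. Mcm3 differed by 0.26 ± 0.07 (SE, 1.2-fold, adjusted p = 0.0164, 18 of 24 mice above their saline mean), and by 0.04 in WT mice, 0.46 in HZ mice and 0.30 in KO mice. The exact permutation p in HZ mice was 0.000311 for Mcm7 and 0.00513 for Mcm3 (0.0028 and 0.0462 over 9 comparisons).

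Prim1, the catalytic subunit of primase, had the highest difference within HZ mice. With saline, Prim1 lay from 6.22 to 6.72 (median 6.49) in WT, from 5.86 to 6.50 (median 6.06) in HZ and from 6.08 to 6.69 (median 6.44) in KO mice. With VPA, Prim1 lay from 6.37 to 6.73 (median 6.53) in WT, from 6.40 to 7.19 (median 6.68) in HZ and from 6.26 to 6.97 (median 6.49) in KO mice. The saline HZ group was the lowest of the 6 groups and the HZ group given VPA the highest, with an overlap of 3 VPA mice with 1 saline mouse. The averaged difference was 0.27 ± 0.06 (SE, 1.21-fold, adjusted p = 0.00268, 18 of 24 mice above their saline mean), made up of 0.07 in WT mice, 0.63 in HZ mice and 0.12 in KO mice. The difference in HZ mice had an exact permutation p of 0.000622 (0.00559 over 9 comparisons). Saline HZ mice lay -0.37 from saline WT mice, with an exact permutation p of 0.00218 (0.00979 over 9 comparisons) and a limma adjusted p of 0.122.

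The clamp loader subunits Rfc3 and Rfc4 were called with less margin. With saline, Rfc3 lay from 7.37 to 7.92 (median 7.66) in WT, from 7.43 to 7.94 (median 7.73) in HZ and from 7.41 to 7.99 (median 7.64) in KO mice. With VPA, Rfc3 lay from 7.71 to 8.00 (median 7.87) in WT, from 7.68 to 8.11 (median 7.82) in HZ and from 7.55 to 7.99 (median 7.78) in KO mice. Rfc3 was the called member whose differences were most alike in the 3 genotypes, at 0.18 in WT mice, 0.15 in HZ mice and 0.10 in KO mice, and its groups overlapped in each. The averaged difference was 0.15 ± 0.05 (SE, 1.11-fold, adjusted p = 0.0384, 20 of 24 mice above their saline mean). With saline, Rfc4 lay from 7.55 to 8.89 (median 8.24) in WT, from 7.64 to 8.24 (median 8.03) in HZ and from 7.44 to 8.22 (median 7.84) in KO mice. With VPA, Rfc4 lay from 7.67 to 9.09 (median 8.36) in WT, from 8.10 to 8.58 (median 8.37) in HZ and from 7.72 to 8.54 (median 8.16) in KO mice. WT mice covered the widest range of Rfc4 in both treatments, and the groups of each genotype overlapped. The averaged Rfc4 difference was 0.29 ± 0.09 (SE, 1.22-fold, adjusted p = 0.0372, 21 of 24 mice above their saline mean), with 0.15 in WT mice, 0.38 in HZ mice and 0.34 in KO mice. Leaving out 1 mouse at a time ended the call of Rfc3 in 16 of 48 fits and that of Rfc4 in 18 of 48, with differences of 0.13 to 0.16 and 0.25 to 0.32.

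**Figure D1:**
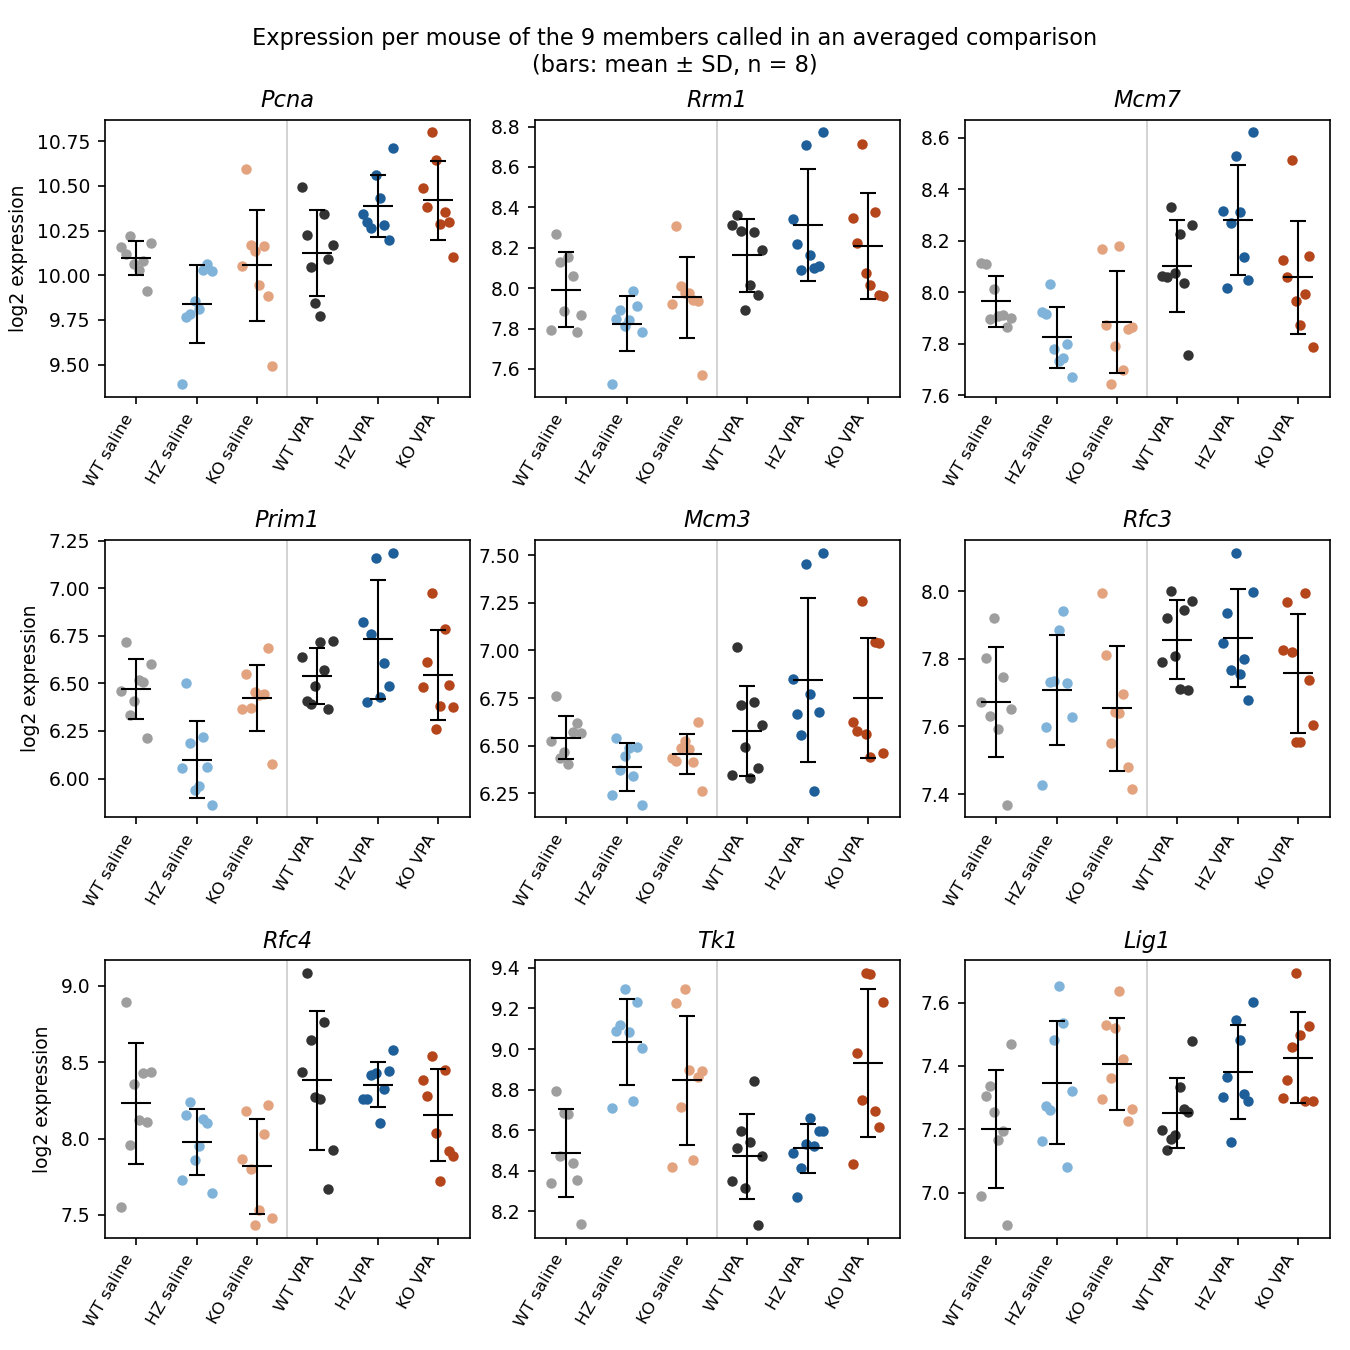
Log2 expression per mouse (vertical axis) in the 6 groups of 8 mice (horizontal axis) for the 9 members called in an averaged comparison, with each point a mouse in order of replicate number and bars giving the mean ± SD. Pcna and Rrm1 of all HZ mice given VPA lie above those of all HZ mice given saline, Tk1 lies below, and Tk1 and Lig1 average higher in KO than in WT mice.

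Of the other replication members, 14 were not called with VPA. In the licensing and helicase group the differences ran from -0.07 (Gins2, adjusted p = 0.279) to 0.30 (Mcm4, adjusted p = 0.0642), with 8 of 10 above zero, and all 6 Mcm subunits were above zero. Of all probesets, 43.2% were above zero. Mcm6 differed by 0.28 (adjusted p = 0.21), Mcm5 by 0.18 (adjusted p = 0.0897), Mcm2 by 0.15 (adjusted p = 0.136) and the GINS subunit Gins1 by 0.18 (adjusted p = 0.104). Of the loading factors, Cdc6 differed by 0.03 and Cdt1 by -0.05, with adjusted p of 0.778 and 0.507. In WT mice alone, Cdt1 was lower with VPA by 0.16, with an exact permutation p of 0.00171 (0.0154 over 9 comparisons), but a limma adjusted p of 0.878. Among the enzymes that work behind the fork, the polymerase alpha subunit Pola1 differed by 0.05, the nuclease Fen1 by -0.01 and the ligase Lig1 by 0.04, with adjusted p from 0.663 to 0.874. In nucleotide supply, Rrm2 differed by 0.12, Tyms by 0.10 and Tk1 by -0.15, with adjusted p from 0.167 to 0.35. Rrm1 was called while its partner subunit Rrm2 was not, and the difference between the 2 effects was not tested.

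E2F factors drive many replication genes, and promoters of replication members were searched for 2 forms of the E2F site, TTTCCCGC and TTTGGCGC, on both strands. Of the 37 members, 30 had a promoter window in RefSeq (GRCm38.p6), 18 of them replication members, and a gene counts once if any of its windows holds the letters. Either form was present in 8 of 18 replication members (44.4%: Mcm3, Mcm5, Mcm6, Mcm7, Cdc6, Cdt1, Rfc3 and Pola1), in 0 of 12 cyclin and mitosis members, and in 1.8% of all 27025 genes with a window. Of the 7 members called higher with VPA, 3 held the letters, Mcm3, Mcm7 and Rfc3. Their stretches are shown because they are the called members with the site, each on the minus strand of GRCm38.p6 and written 5′ to 3′ along the gene, with E2F letters (TTTGGCGC or the opposite strand's GCGGGAAA) in capitals. For Mcm7 it is 1 of 2 windows that holds the letters.
Mcm3 (chr1:20820263-20820329): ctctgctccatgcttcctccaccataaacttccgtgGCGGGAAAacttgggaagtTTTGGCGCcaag
Mcm7 (chr5:138172005-138172084): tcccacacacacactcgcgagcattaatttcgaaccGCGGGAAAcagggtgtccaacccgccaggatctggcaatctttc
Rfc3 (chr5:151651165-151651244): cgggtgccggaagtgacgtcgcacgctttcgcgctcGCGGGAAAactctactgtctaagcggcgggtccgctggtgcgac

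Mcm3 carried both forms, starting at bases 20 and 39 after its start, Rfc3 had one at base 1 and Mcm7 one at position -165, before the start that its window uses. That start lies inside the annotated Mcm7 gene (138164583 to 138172111), so the Mcm7 stretch lies within the gene. Mcm5, Mcm6, Cdc6, Cdt1 and Pola1 held the letters too and were not called with VPA, and Pcna, Prim1, Rrm1 and Rfc4 were called without them, so the letters did not separate called from other replication members. A match is a description of the letters in these windows.

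Within HZ mice, VPA was followed by 6 higher members and 1 lower one, against 4.72% and 5.76% of all probesets. Higher were Mcm3 (0.46, adjusted p = 0.0151), Mcm7 (0.46, 0.000713), Pcna (0.55, 0.000919), Prim1 (0.63, 7.74e-05), Rrm1 (0.49, 0.00219) and Top2a (0.57, 0.0349), and lower was Tk1 (-0.53, 0.00532). In WT mice limma called 0 of 36 members, against 0.0703% of all probesets, with 3 of 36 at an unadjusted p under 0.05. In KO mice it called 0 of 36, against 0.0112%, with 7 of 36 at an unadjusted p under 0.05, all 7 of them replication members. No share of all probesets at that unadjusted p is given, so the unadjusted counts have no background to be read against. The median VPA difference over the 36 members was 0.01 in WT mice, 0.20 in HZ mice and 0.08 in KO mice. Without HZ VPA replicates 4 and 8 the HZ median was 0.01, with 19 of 36 members above zero and 17 below. With array weights 16 members were higher and 1 lower in HZ mice, against 19.0% of all probesets, and the members gained were Mcm4, Mcm5, Mcm6, Rfc4, Tyms, Ccna2, Ccnb2, Cdk1, Mki67 and Plk1. With the clock index described last as a covariate, 0 members and 0 of all probesets were called there. That index did not overlap between the HZ groups, so the fit cannot separate it from VPA.

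A call in HZ mice without one in WT or KO mice does not show that genotypes differ. The interaction of genotype and VPA, which tests that difference, called 0 of 36 members, against 0.0816% of probesets, with 7 of 36 at an unadjusted p under 0.05 and 0 called by the ordinary linear model as well. The smallest adjusted p were 0.159 for Prim1, 0.27 for Tk1 and 0.341 for Pcna. Taken pairwise, the VPA effect in KO minus that in HZ mice was called in 0 of 36 members, against 0.214% of probesets, with 5 of 36 at an unadjusted p under 0.05. The VPA effect in HZ minus that in WT mice was called in 0 of 36, against 0% of probesets, with 10 of 36 at an unadjusted p under 0.05. The shares of probesets are those called at the adjusted p, so they are no background for the unadjusted counts. The KO minus HZ difference of effects was 0.61 for Tk1 and -0.51 for Prim1, with adjusted p of 0.124 and 0.126.

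**Figure D2:**
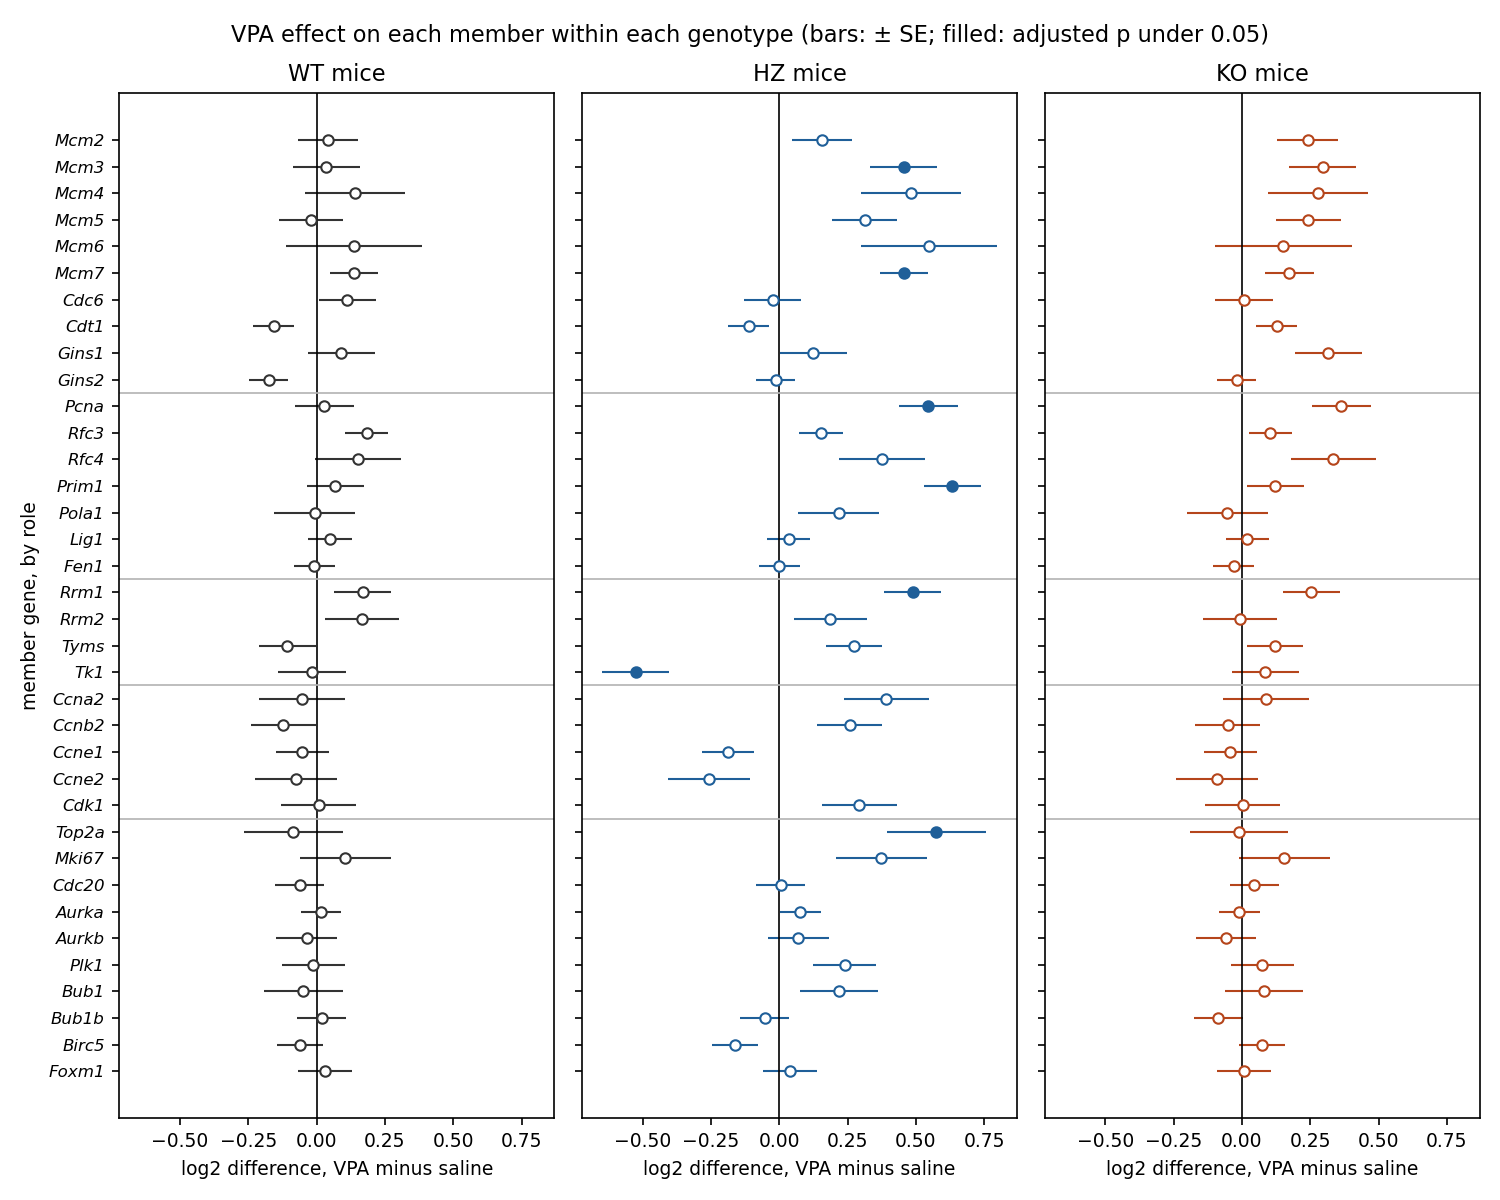
VPA minus saline difference of mean log2 expression (horizontal axis, bars ± SE) for each of the 36 members (vertical axis, ordered by role, lines between role groups) in WT, HZ and KO mice, with filled points at an adjusted p under 0.05. The 7 filled points are all in HZ mice, 6 to the right of zero and Tk1 to the left.

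Cyclins and Cdk1, the kinase and its partners that carry a cell through S phase and into mitosis, gave no call with VPA averaged over genotypes. The differences were 0.14 for Ccna2, 0.10 for Cdk1, 0.03 for Ccnb2, -0.09 for Ccne1 and -0.14 for Ccne2, with adjusted p from 0.281 to 0.834. Among the 10 genes of mitosis and chromosome structure, the highest differences were those of the proliferation marker Mki67 (0.21, adjusted p = 0.154) and of topoisomerase Top2a (0.16, adjusted p = 0.336). The other 8 were the mitotic kinases Plk1 (0.10), Aurka (0.03) and Aurkb (-0.01), the checkpoint kinases Bub1 (0.08) and Bub1b (-0.04), the anaphase activator Cdc20 (-0.004), the survivin gene Birc5 (-0.05) and the mitotic transcription factor Foxm1 (0.03), with adjusted p from 0.344 to 0.972. Without HZ VPA replicates 4 and 8 the averaged difference was 0.10 for Mki67, 0.05 for Top2a, 0.04 for Ccna2 and 0.01 for Cdk1, with adjusted p from 0.396 to 0.93.

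Several of these genes were spread widely among HZ mice given VPA. In that group Top2a ran from 5.18 to 6.83 (median 5.44), Mki67 from 6.01 to 7.72 (median 6.39), Ccna2 from 5.88 to 7.60 (median 6.30), Cdk1 from 6.49 to 7.89 (median 6.85) and Ccnb2 from 6.87 to 8.02 (median 7.03). The high ends were the same 2 mice, replicates 4 and 8. Their means over the 15 cyclin and mitosis members were 7.12 and 7.16, whereas the highest of the other 46 mice was 6.61. Both were above all 46 other mice in 11 of the 15 cyclin and mitosis members and in 7 of the 21 replication members, 18 of 36 in all, while the same held for 0.821% of all probesets. The 2 mice were picked by their means over these same 15 members. That choice raised the counts for the 15 and the 36, so they are a description and no test.

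In Top2a these 2 mice read 6.83 and 6.74, and the other 6 of their group lay between 5.18 and 6.18. In Mki67 they read 7.72 and 7.71, against 6.01 to 7.05 for the other 6, and in Ccna2 7.26 and 7.60, against 5.88 to 6.75. Cdk1 read 7.89 and 7.72, against 6.49 to 7.00, and Ccnb2 7.84 and 8.02, against 6.87 to 7.15. The other members above all other mice in both were Cdc20, Aurka, Aurkb, Plk1, Bub1 and Bub1b of mitosis, Mcm3, Mcm4, Mcm5, Mcm7 and Gins1 of the helicase, Prim1 and Rrm2. Ccne1, Ccne2, Birc5 and Foxm1 were the cyclin and mitosis members in which another mouse was as high. Bub1 is dim on this array, with group means of 4.64 to 4.91. Mean correlations of these 2 arrays with the other arrays of their group over all probesets were 0.987 and 0.989. The arrays of that group, these 2 included, ranged from 0.985 to 0.989, with replicate 8 at the upper end.

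**Figure D3:**
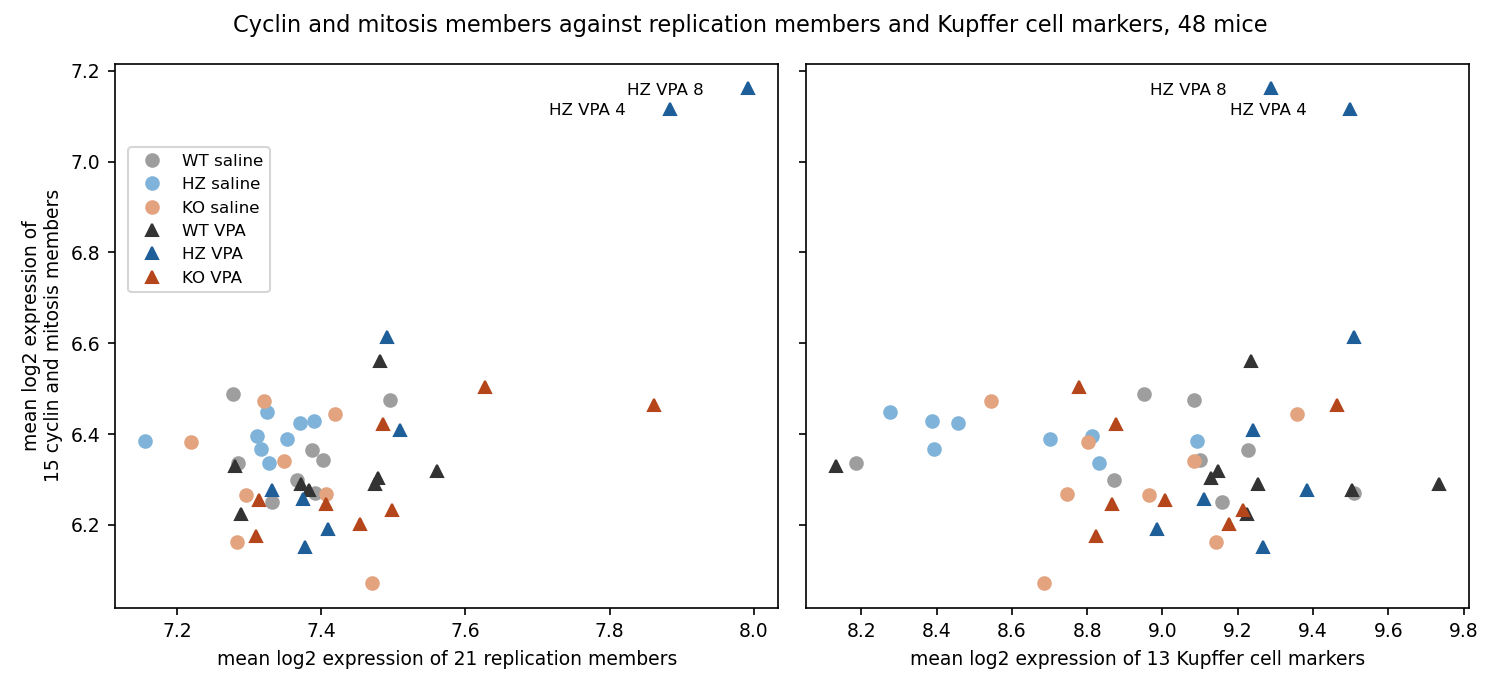
Mean log2 expression of 15 cyclin and mitosis members (vertical axis) against that of 21 replication members (left) and of 13 Kupffer cell markers (right), with each point a mouse (circles saline, triangles VPA). HZ VPA replicates 4 and 8 lie at 7.12 and 7.16 on the vertical axis, above the other 46 mice, which reach 6.61, while their Kupffer cell markers lie among those of the other mice.

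Promoters of mitotic genes often hold the cell cycle genes homology region (CHR), here the letters TTTGAA or TTCGAA on either strand (TTCGAA reads the same on both), together with CCAAT boxes. CHR letters were present in 9 of 12 cyclin and mitosis members with a window (75%: Ccnb2, Cdk1, Top2a, Mki67, Cdc20, Aurka, Plk1, Bub1 and Bub1b), in 4 of 18 replication members (22.2%: Mcm2, Mcm7, Rfc3 and Fen1) and in 21.7% of all genes with a window. CCAAT, whose opposite strand is ATTGG, was present in 10 of 12 (83.3%), in 11 of 18 (61.1%) and in 41.1% of all genes, with Ccnb1 counted among the 12. Of the replication members with CHR letters, HZ VPA replicates 4 and 8 were both above all other mice in Mcm7 but not in Mcm2, Rfc3 or Fen1. They were also above all others in Mcm3, Mcm5, Prim1 and Rrm2, whose windows lack CHR letters. All 9 cyclin and mitosis members with CHR letters were among the 11 of 15 that both mice topped, in a group where most members were topped. Stretches of 4 of them are shown because they were the members with CHR letters in which these mice stood farthest above the others, all on the minus strand of GRCm38.p6 and written 5′ to 3′ along the gene, with CHR letters in capitals. Each stretch surrounds the most upstream match. Further CHR letters lie outside the stretches of Top2a (-120 and -23), Cdk1 (-15) and Ccnb2 (base 5 after the start). The Ccnb2 stretch holds no CCAAT box, and those of its window start at -87, -54 and -21.
Top2a (chr11:99024324-99024405): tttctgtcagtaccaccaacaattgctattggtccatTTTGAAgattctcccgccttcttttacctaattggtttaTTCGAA
Mki67 (chr7:135716453-135716532): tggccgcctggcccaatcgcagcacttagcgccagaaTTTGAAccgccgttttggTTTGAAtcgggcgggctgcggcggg
Cdk1 (chr10:69352941-69353020): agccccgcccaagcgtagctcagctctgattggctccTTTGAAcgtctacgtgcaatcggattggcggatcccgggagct
Ccnb2 (chr9:70421679-70421758): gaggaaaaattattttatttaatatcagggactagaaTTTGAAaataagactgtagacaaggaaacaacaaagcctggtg

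**Figure D4:**
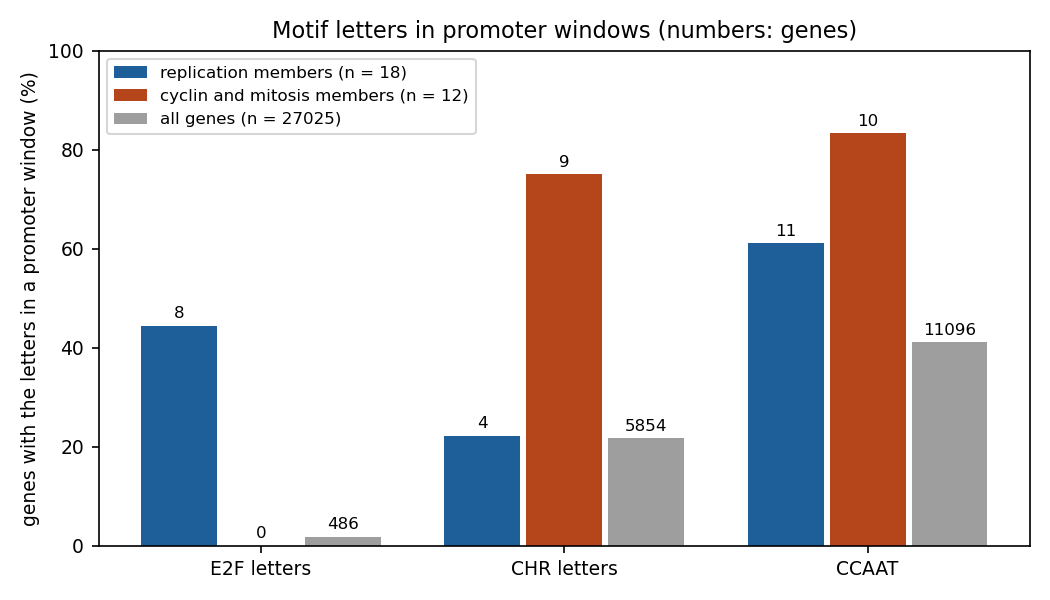
Share of genes (vertical axis, %) with a promoter window that holds the E2F letters, the CHR letters or CCAAT (horizontal axis), for replication members, for cyclin and mitosis members and for all genes, with the number of genes over each bar. E2F letters were found in 8 of 18 replication members and 0 of 12 cyclin and mitosis members, and CHR letters in 9 of 12 cyclin and mitosis members.

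Without HZ VPA replicates 4 and 8, an alternative chosen after seeing the data, 5 members kept their averaged VPA call, Mcm3, Mcm7, Pcna, Prim1 and Rrm1, and Rfc3 (0.13, adjusted p = 0.094) and Rfc4 (0.27, adjusted p = 0.0734) lost it. Pcna then differed by 0.29 with an adjusted p of 0.00347, and 6.03% of all probesets were called. Within HZ mice Mcm7 (0.36), Pcna (0.46), Prim1 (0.49), Rrm1 (0.35) and Tk1 (-0.54) kept their calls, Mcm3 (0.24, adjusted p = 0.174) and Top2a (0.24, adjusted p = 0.343) lost theirs, and Ccne1 was lower with VPA (-0.33, adjusted p = 0.0263), while 4.06% of all probesets were called. The Top2a call in HZ mice was also lost without any 1 of HZ VPA replicates 4, 5 or 8 or HZ saline replicates 1, 3, 5, 6 or 8, with differences of 0.42 to 0.58, and the Mcm3 call there was lost without HZ VPA replicate 4 (0.37, adjusted p = 0.054). The second Top2a probeset, which is dim at a mean of 3.78 and correlates with the first by 0.171 over the 48 mice, differed by 0.18 in HZ mice with an adjusted p of 0.431.

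The mice with high replication genes were not all the same ones. The highest means over the 21 replication members were those of HZ VPA replicates 8 (7.99) and 4 (7.88), followed by KO VPA replicates 3 (7.86) and 6 (7.63) and WT VPA replicate 2 (7.56), so the top 6 of the 48 mice had all received VPA. KO VPA replicate 3 read 8.53 for Mcm6 and 8.72 for Rrm1, while its mean over the cyclin and mitosis members was not among the highest 6. Over pairs of replication members the median correlation of values across the 48 mice, after the group means were taken out, was 0.298, and 0.169 without HZ VPA replicates 4 and 8. Over pairs of cyclin and mitosis members it was 0.55, and 0.293 without them. These are descriptions over mice whose arrays share 1 normalization.

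**Figure D5:**
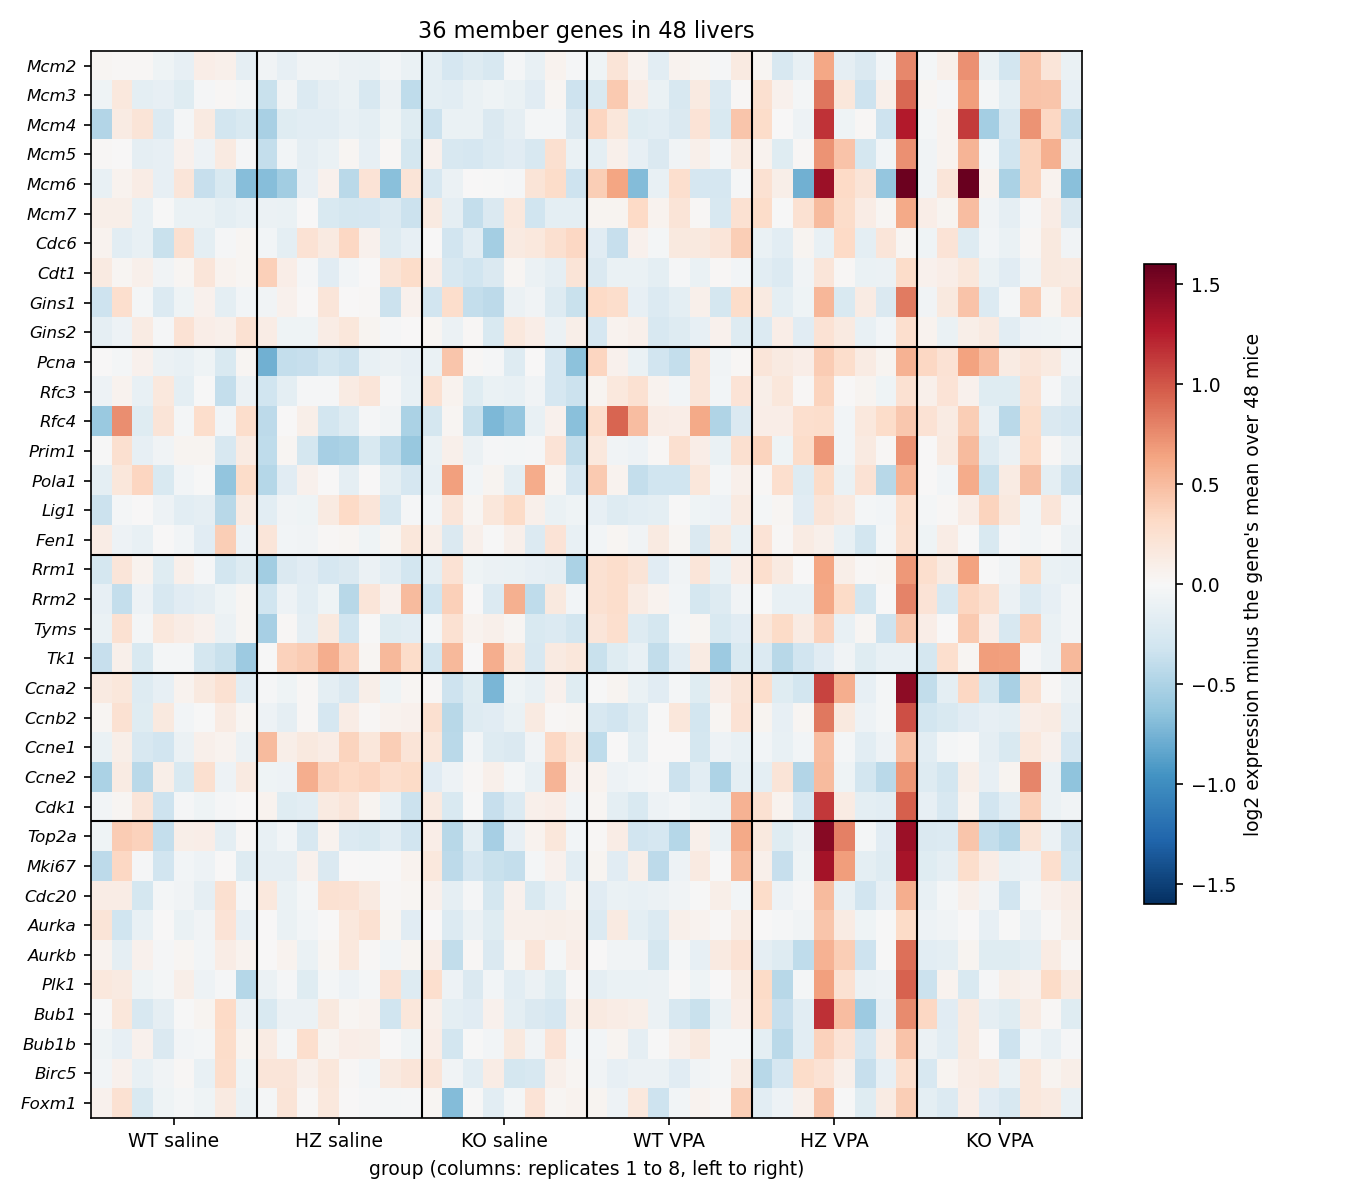
Log2 expression of the 36 members (rows, by role group) in the 48 mice (columns, by group and replicate number), each minus the mean of that gene over all mice, from blue (lower) to red (higher). The columns of HZ VPA replicates 4 and 8 are red in most replication and mitosis rows, and KO VPA replicate 3 is red in the Mcm rows.

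In KO against WT mice, over both treatments, 2 of 36 members were higher, Tk1 and Lig1, and 0 were lower, against 1.37% of all probesets called higher and 1.57% lower. Over probesets with 1 gene symbol alone the same count of 2 stood against 4.85% called, which is close to the share among the members. Tk1, the salvage enzyme that phosphorylates thymidine, was the member with the clearest genotype difference. With saline, Tk1 lay from 8.14 to 8.79 (median 8.46) in WT, from 8.71 to 9.30 (median 9.09) in HZ and from 8.42 to 9.30 (median 8.88) in KO mice. With VPA, Tk1 lay from 8.13 to 8.84 (median 8.49) in WT, from 8.27 to 8.66 (median 8.53) in HZ and from 8.43 to 9.38 (median 8.86) in KO mice. KO mice averaged above WT mice in both treatments, whereas HZ mice averaged 9.04 with saline and 8.51 with VPA, next to 8.85 and 8.93 in KO mice and 8.49 and 8.47 in WT mice. KO minus WT was 0.41 ± 0.09 (SE, 1.33-fold, adjusted p = 0.00318), with 13 of 16 KO mice above the mean of the WT mice of their treatment. It was 0.36 with saline and 0.46 with VPA, with exact permutation p of 0.0208 and 0.00886 (0.0375 and 0.0199 over 9 comparisons). The second Tk1 probeset, with a correlation of 0.899 to the first, gave 0.30 ± 0.08 (adjusted p = 0.0334).

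In saline, HZ mice were higher than WT mice in Tk1 by 0.55 ± 0.12 (SE, 1.46-fold, adjusted p = 0.0331, exact permutation p = 0.000777), the only one of the 36 members called there, against 0.304% of all probesets. All 8 HZ mice given VPA were below all 8 HZ mice given saline, with an exact permutation p of 0.000155, and the second probeset gave -0.56 (adjusted p = 0.00179). Tk1 lies on chromosome 11 (GRCm38.p6, 117815519 to 117826087), so it is not near Wfs1 on chromosome 5 (36966104 to 36988982).

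Lig1, the ligase that joins Okazaki fragments, was higher in KO than in WT mice by 0.19 ± 0.06 (SE, 1.14-fold), with 16 of 16 KO mice above their WT mean. With saline, Lig1 lay from 6.90 to 7.47 (median 7.23) in WT, from 7.08 to 7.65 (median 7.30) in HZ and from 7.23 to 7.64 (median 7.39) in KO mice. With VPA, Lig1 lay from 7.13 to 7.48 (median 7.23) in WT, from 7.16 to 7.60 (median 7.34) in HZ and from 7.29 to 7.69 (median 7.41) in KO mice. The groups overlapped in both treatments, with VPA differences of 0.05 in WT mice, 0.04 in HZ mice and 0.02 in KO mice. Its adjusted p was 0.05 to 2 decimals (0.04997), and the call was lost in 7 of 12 other settings and in 32 of 48 fits without 1 mouse, in which the difference stayed between 0.17 and 0.21.

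The remaining genotype comparisons gave no call by limma over both treatments. HZ against WT called 0 of 36 members, against 0.00281% of probesets, with 4 of 36 at an unadjusted p under 0.05, and KO against HZ called 0 of 36, against 1.44%, with 4 of 36 at an unadjusted p under 0.05. The ordinary linear model called 0 in both. For the unadjusted counts no share of all probesets is given. All 15 cyclin and mitosis members averaged higher in HZ than in WT mice and higher in HZ than in KO mice, with median differences of 0.12 (HZ minus WT) and -0.14 (KO minus HZ), and both comparisons share the HZ mice. Without HZ VPA replicates 4 and 8, 8 of 15 were higher in HZ than in WT mice (median 0.004) and 12 of 15 higher in HZ than in KO mice (median -0.04). With saline, where those mice do not enter, 9 of 15 were higher in HZ than in WT mice and 14 of 15 higher in HZ than in KO mice. Of all probesets with saline, 57.1% were higher in HZ than in WT mice and 45.5% higher in KO than in HZ mice. Over both treatments these shares were 53.7% and 49.5%. The 15 members correlate over mice, so the counts are not of independent genes. The HZ against WT direction therefore rested on the 2 mice, whereas 12 of 15 kept the KO against HZ direction at a smaller median. After Tk1 and Lig1, the smallest p of KO against WT mice was that of Rfc4 (-0.32, adjusted p = 0.115).

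With saline, the G1 cyclin gene Ccne1 separated HZ from WT mice. Cyclin E1, which with Cdk2 starts S phase, had Ccne1 values from 7.185 to 7.587 (median 7.279) in HZ, from 6.784 to 7.181 (median 6.994) in WT mice and from 6.655 to 7.414 (median 7.036) in KO mice given saline. All 8 HZ mice were above all 8 WT mice, by a narrow margin at the edge. The difference of 0.33 had an exact permutation p of 0.000155 (0.0014 over 9 comparisons) and a limma adjusted p of 0.148. Among all probesets 0.0731% had all saline HZ mice above all saline WT mice and 0.0844% had all of them below, against 1 and 0 of the 36 members. Ccne2 differed by 0.33 in the same comparison (exact permutation p = 0.0207, 0.186 over 9 comparisons).

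The other genes of the pathway come from lists chosen with earlier results known, and their counts stand against the 4.01% of all probesets called higher and 4.6% called lower with VPA. Of 41 measured other replication genes, 6 were higher and 1 lower with VPA, with a median difference of 0.07. Those with the 5 smallest p among the higher ones were the dUTPase gene Dut (0.16), the maintenance methyltransferase gene Dnmt1 (0.13), the single-strand binding gene Rpa1 (0.15), the primase subunit gene Prim2 (0.21) and the deoxycytidine kinase gene Dck (0.13). Lower was the initiation factor gene Mcm10 (-0.28, adjusted p = 0.00306). Of 46 other mitosis genes 2 were higher, Cks2 (0.33, adjusted p = 0.00139) and the spindle checkpoint gene Mad2l1 (0.37, adjusted p = 0.0286), and the phosphatase gene Cdc25b was lower (-0.15, adjusted p = 0.00864), with a median of 0.04. Of 47 cell cycle regulators 4 were higher and 2 lower with a median of 0.03, and those were Ccng2 (0.48), Btg1 (0.26), Rbl1 (0.28) and Cdk4 (0.10), and the mitotic brake Wee1 (-1.03, adjusted p = 1.54e-06) and the inhibitor Cdkn1c (-0.15). In KO against WT mice the called genes of these lists were Gmnn (0.18) and Dck (-0.19) of replication, and Gadd45a (0.30), Wee1 (0.68), Gadd45b (0.58), Btg1 (0.25) and Mdm2 (-0.23) of the regulators. Of all probesets, 1.37% were called higher and 1.57% lower there. Gmnn encodes geminin, which binds Cdt1 and blocks reloading of the helicase. Without HZ VPA replicates 4 and 8, 3 of the replication genes were higher (Rpa1, Dut and Dnmt1) and Mcm10 lower, 1 of the mitosis genes was higher (Cks2) and Cdc25b lower, the 6 called regulators remained, and the medians were 0.04, 0.001 and 0.01 in that order. These mice were above all 46 other mice in 26 of the 46 other mitosis genes, 6 of the 41 other replication genes and 3 of the 47 regulators.

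Some markers of other liver cells were called in the same comparison. Of all probesets, 4.01% were called higher and 4.6% lower averaged over genotypes, and 4.72% and 5.76% in HZ mice. In KO against WT mice these shares were 1.37% and 1.57%. A single call in a short list is not read as a result. Of 13 Kupffer cell markers, 8 were higher and 0 lower with VPA averaged over genotypes, led by Csf1r (0.32), Cd5l (0.41) and Cd68 (0.41), and 10 of 13 were higher in HZ mice, where the median difference was 0.75. Without HZ VPA replicates 4 and 8 these counts were 4 and 7 of 13, with an HZ median of 0.73. Their mean level ran from 8.28 to 9.09 in HZ mice given saline and from 8.99 to 9.51 in HZ mice given VPA. In the other groups it ran from 8.19 to 9.51 in WT saline, 8.54 to 9.36 in KO saline, 8.13 to 9.73 in WT VPA and 8.78 to 9.46 in KO VPA mice. Of 10 endothelial markers 3 were higher averaged over genotypes (Cdh5, 0.23, Kdr, 0.16, and Clec4g, 0.26) and 7 in HZ mice, and of 10 stellate cell markers 2 were higher averaged (Lrat, 0.39, and Dcn, 0.14) and 3 in HZ mice. Clec4g and Dcn lost their averaged calls without HZ VPA replicates 4 and 8, and the HZ counts were then 6 and 2. Both HZ VPA replicates 4 and 8 were above all other mice in 1 of 9 hepatocyte markers, against 0.821% of all probesets. They were so in no marker of the Kupffer cell, endothelial, stellate cell, lymphocyte, neutrophil, erythroid and cholangiocyte lists. At that share few or no markers of such short lists would be topped, so these counts do not set hepatocytes apart. Of the remaining lists, 0 of 10 lymphocyte markers were called with VPA, 1 of 9 hepatocyte markers was lower (Tat, -0.19), 1 of 10 neutrophil markers was lower (Ly6g, -0.18), 1 of 5 erythroid markers was lower (Slc4a1, -0.21), and of 6 cholangiocyte markers Sox9 was higher (0.43) and Epcam lower (-0.12). Tat and Epcam were not called without HZ VPA replicates 4 and 8. In KO against WT mice Alas2 of the erythroid list (-1.24), Cd4 of the lymphocyte list (-0.35) and Sox9 (-0.30) were lower. The part of these cells in the member differences was not tested.

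Genes of the circadian clock moved with VPA and genotype as well. All 9 clock genes of the list that is low when Arntl is high were lower with VPA, among them Dbp (-1.92) and Tef (-0.88), and 3 of 4 of the opposite list were higher, among them Arntl (1.51). Leaving out HZ VPA replicates 4 and 8, these counts were 8 of 9 and 3 of 4, with Nr1d1 no longer called. In KO against WT mice 7 of the 9 were higher and 2 of the 4 lower. An index of the clock, the mean z-score of the second list minus that of the first, averaged -0.45 in WT mice, -2.21 in HZ mice and -1.002 in KO mice with saline, and 2.13, 1.79 and -0.25 in the same order with VPA, so it moved most in HZ mice. In WT and in HZ mice every VPA value of this index was above every saline value, so a fit with it cannot separate the clock from VPA. With this index as a covariate, 0 of 36 members and 0 of all probesets were called with VPA, and Pcna differed by 0.19, Mcm3 by 0.33 and Rrm1 by 0.22, while in KO against WT mice 0 of 36 were called and Tk1 differed by 0.31. The SE of the VPA difference rose there from 0.063 to 0.125 for Pcna and from 0.071 to 0.144 for Mcm3. From WT and KO mice alone, without the HZ mice, 0 of 36 members were called with VPA, Pcna differed by 0.20, and 0.219% of all probesets were called. The part of the clock in the member differences was not tested.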

How the data were processed

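Liver RNA of 48 mice was hybridized to Affymetrix Mouse Gene 1.0 ST arrays, 1 array per mouse. The deposited values are log2 expression per probeset, which the authors summarized with RMA in Affymetrix Expression Console 1.1.2800.28061. They were used as deposited. Of 35556 probesets, 21789 have 1 gene symbol in the platform annotation, 1621 several and 12146 none, and only those with 1 symbol were named. The 36 measured members, the role groups and all gene lists were chosen with earlier results of these data known. Every member is named. Genes of other lists are named if called, up to 6 per pathway list and 3 per cell type or clock list in order of p.

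A model of 6 group means (42 residual degrees of freedom) was fitted with limma 3.58.1 in R 4.3.3 to all probesets, with eBayes moderation and Benjamini-Hochberg adjustment over all of them. A gene was called at an adjusted p under 0.05. Counts of members at an unadjusted p under 0.05 come without a share of all probesets. Exact two-sided permutation tests compared groups of 8 mice, adjusted over 9 comparisons per gene, with a smallest possible p of 0.000155. The fit was tested on simulated data. Promoter windows came from RefSeq (GRCm38.p6) and were searched in Python 3.11.15. Replicates are separate mice. Their number limits the precision, as the arrays give no counts.

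Same-numbered mice of different groups were not treated as paired. Alternatives covered weights, moderation, centring, filters, the samples fitted, the threshold, a replicate block, a clock covariate and leaving out each mouse. All settings for VPA within HZ mice and for members other than Pcna, and leaving out HZ VPA replicates 4 and 8, were added after seeing the data. Ccnb1 was not analysed here.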

Additional observations from a re-analysis of the deposited data

Results flagged for a closer look

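Among the 60 groups of 8 mice formed by 10 members, 2 had a mouse far from the others of its group, and chance flags about 1 in 20 groups. Both were the same mouse, replicate 1 of the HZ mice given saline. Its Pcna value was 9.39, the lowest of its group, with the next mouse at 9.77 and the gap at 0.561 of the range of the group. Its Rrm1 value was 7.52, with the next mouse at 7.78 and the gap at 0.563 of the range. Without this mouse both genes kept their VPA calls in HZ mice.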

How the results depend on the processing

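The VPA count of 7 members was 0 from WT and KO arrays only, where 0.219% of all probesets were called, 4 at an adjusted p under 0.01 (2.97% of all probesets), and 0 with the clock index as a covariate, which left 0 of all probesets called. The VPA effect on Pcna was 0.20 from WT and KO arrays and 0.19 with the clock index, uncalled in both. The HZ count of 7 was 17 with array weights, which called 19.0% of all probesets, and 0 with the clock index. The KO against WT count of 2 was 1 with array weights, with trend and robust estimation, with no moderation, with arrays centred on their median, with only the groups compared and at an adjusted p under 0.01, and 0 with the clock index, with 0.697% to 3.02% of all probesets called. The cause of these changes was not tested. The fit of WT and KO arrays has fewer mice, and the differences of all 7 members were also smaller there. They ran from little changed in Rfc3 (0.144 against 0.147) to much smaller in Prim1 (0.095 against 0.274). An adjusted p under 0.01 is a stricter threshold. The clock index did not overlap between treatments in WT or in HZ mice, so that fit cannot separate it from VPA. Without 1 mouse at a time the counts ran from 5 to 8 (VPA), 5 to 9 (VPA in HZ), 1 to 2 (KO against WT), 0 to 0 (HZ against WT), 0 to 1 (KO against HZ, Ccne1 without KO saline replicate 7) and 0 to 0 (interaction), and the Pcna effect from 0.29 to 0.34. With the replicate number as a block the counts were 7, 8, 2, 0, 0 and 0 in the same order, and 11.3%, 13.9% and 3.46% of all probesets were called in the first 3, against 8.61%, 10.5% and 2.94% without it. Same-numbered mice of different groups correlated above 0.1 in 53 of 120 pairs (44.2%, mean 0.05) and other mice in 207 of 840 pairs (24.6%, mean -0.01). Since not every same-numbered pair passed 0.1 and the labels give the number no meaning, the mice were not treated as paired. Of 1320 alternative values, counts of called members and effects of single members together, 1163 were rated the same. An effect was rated the same if it kept its direction and stayed called. A count was rated the same if it stayed within a set ratio of the main count or if both were 0, so its genes could still change. Effects changed direction in 0 values, a rating that counts could not get.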
